A study of Mus musculus with 10 samples.

Results

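The Hox gene clusters were examined in ChIP-seq (chromatin immunoprecipitation followed by sequencing) peak lists of mouse hepatocytes with and without Arid1a. The members are 38 named Hox genes of the 21938 annotated protein-coding genes, 10 in HoxA, 10 in HoxB, 9 in HoxC and 9 in HoxD, and the rule that lists them uses names and positions and no measured value. Each cluster was taken from the outer ends of its outermost listed genes (the span), and with 50 kb on both sides (the window). In mm10 (GRCm38), the spans were chr6:52162417-52260880 for HoxA, chr11:96194316-96368256 for HoxB, chr15:102921103-103036852 for HoxC and chr2:74668310-74765142 for HoxD. Together the 4 windows cover 885 kb, 0.0325% of the chromosomes.

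The cells were AB17, primary hepatocytes of an Arid1a fl/fl C57BL/6 mouse made immortal with SV40 large T antigen and then given activated H-Ras (pLPC-H-Ras V12D), so every group carries both oncogenes. Wildtype (WT) cells received the adenovirus Ad-GFP. Knockout (KO) cells received Ad-Cre, which removes exon 8 of Arid1a by the study's methods. H3K27me3 and H3K9me3 were profiled in WT and KO cells, and Brg1, Arid1a, Ctcf and Rad21 in WT cells only. No list measures Arid1a in KO cells, so its loss was not checked here. Each of the 8 groups is 1 library of a single line, with no replicate, so no p-value is given, and the exact 95% intervals cover counting error only. Neighbouring summits are not independent, which makes these intervals too narrow.

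Hox genes encode homeodomain transcription factors that give the body axis and the limbs their regional identity. Their order along the chromosome follows the place and time of their use, from the low-numbered groups in the hindbrain and neck to group 13 at the tail, the hindgut and the digits. Where Hox genes are silent, Polycomb complexes cover them with H3K27me3, and Ctcf, with cohesin, can mark the border between a silent and an active part of a cluster. Trithorax-type remodellers, to which Brg1 and Arid1a belong as SWI/SNF subunits, are the classical opponents of Polycomb at these genes.

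Each list gives 1 summit per peak with its strength, the −log10 q-value of the authors' peak caller, where values start at 1.3. The 8 lists held 70408 to 143835 summits genome-wide, and the read depth is unknown. Strengths were ranked within a list and never divided between lists. As a check of the labelled cell type, 9 of 10 hepatocyte genes were matched, and a H3K27me3 summit lay within 2 kb of the start of 4 of them in WT and 3 in KO cells. Over all protein-coding genes the shares were 23.4% and 19.8%. The strongest of these was at Cebpa, a liver transcription factor, at 20.4 in WT and 18.1 in KO cells. No summit of either genotype lay at Alb, Apoa1 or Apob, which encode secreted liver proteins.

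The sequences that bear on the cluster maps are the Ctcf sites, because Ctcf reads DNA through a motif with a direction. For each cluster, the strongest site of at least 20 in the span with a motif match toward the low groups is printed, then the strongest toward group 13 where one of at least 20 was found, and finally the site just past the last shared H3K27me3 position of HoxA, described later. Each is given 5′ to 3′ on the strand of the match, with 5 bases on either side, and the capitals mark the 20 bases scored by a matrix learned from the strong Ctcf summits elsewhere in the genome. A match here is a score reached by 5% of positions moved 2 kb away, a limit added after the first count was seen. At the planned limit of 1%, only the Hoxc12–Hoxc11 and Hoxd9–Hoxd8 stretches passed among those printed. The Hoxb9–Hoxb8 stretch lay 90 bp from its summit, near the edge of the 100 bp searched. The letters are those of the RefSeq GRCm38.p6 genome.
Hoxa5–Hoxa6, chr6:52204650-52204679, minus strand, toward the low groups: gcccaGTCTCCAGCGGGTGGCGCTCgagtc
Hoxa11–Hoxa13, chr6:52257112-52257141, plus strand, toward group 13: agcttGTCAACACGAGGTGGCGCCCttgat
Hoxb9–Hoxb8, chr11:96278939-96278968, plus strand, toward the low groups: gcacaGTGGCCGCTAGATGGCATCCttgct
Hoxb13–Hoxb9, chr11:96261744-96261773, minus strand, toward group 13: cgcgaCCGACCTCTAGGCGGCGCCCtggcg
Hoxc11–Hoxc10, chr15:102966563-102966592, plus strand, toward the low groups: ccgagGCAGCTGCTAGGTGGCGCTGttact
Hoxc12–Hoxc11, chr15:102943449-102943478, minus strand, toward group 13: ccgctCTGGCCAGCAGGGGTCATCCcgtcc
Hoxd9–Hoxd8, chr2:74702386-74702415, plus strand, toward the low groups: cgcatTTGGCCACTAGAGAGCGCTGttgct
Hoxa10–Hoxa11, chr6:52240532-52240561, minus strand, toward the low groups: tcgcaGCCGCCACGAGATGGCGCACtcccg

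To place the Polycomb mark, the H3K27me3 summits of both genotypes were first counted per cluster. The 4 windows held 126 WT and 138 KO summits, a density 3.54 times and 4.94 times that of the genome. HoxA held 18 WT and 25 KO summits, HoxB 42 and 44, HoxC 24 and 29, and HoxD 42 and 40. Over the whole genome the KO list was the shorter one, with a KO to WT ratio of 0.785. The ratio over the 4 windows was 1.1 (interval 0.854 to 1.41), so its interval lay above the genome ratio. With equal numbers of peaks in both genotypes, 113 WT and 138 KO summits gave 1.22 (0.945 to 1.58), which takes in a genome ratio of 1. With strengths of at least 5, 37 WT and 45 KO summits gave 1.22 (0.770 to 1.93), which takes in 0.819, so the difference from the genome was lost under both. For the single clusters the ratio was 1.39 (0.728 to 2.70) in HoxA, 1.05 (0.671 to 1.64) in HoxB, 1.21 (0.679 to 2.17) in HoxC and 0.952 (0.602 to 1.5) in HoxD. Each of these intervals takes in the genome ratio, so no cluster alone differed from it beyond counting error. With flanks of 100 kb, HoxB and HoxC had ratios of 0.887 and 0.968, under an equal count. The 4 windows together then held 185 WT and 183 KO summits, a ratio of 0.989 (0.802 to 1.22). That ratio was also under an equal count, with an interval above the genome ratio of 0.785.

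Tiles of 200 kb with at least 20 H3K27me3 summits in both lists together gave a second background. The median ratio of these 2890 tiles was 0.780, and the KO count reached the WT count in 25.3% of them, against 3 of the 4 Hox windows. A ratio at or above that of HoxA was seen in 5.19% of the tiles, and 9.52%, 19.4% and 28.0% reached those of HoxC, HoxB and HoxD. The Hox windows thus sat on the high side of the tiles without leaving their range. The ratio of HoxA rests on its flank, since the span held 8 WT and 7 KO summits, a ratio of 0.875 (0.270 to 2.76).

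**Figure D1:**
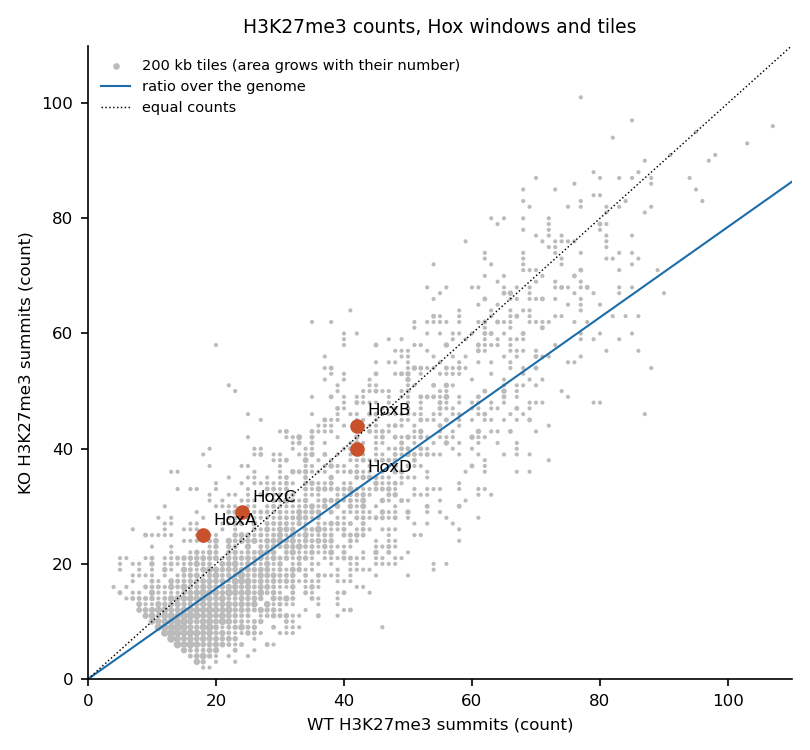
WT (x axis) and KO (y axis) counts of H3K27me3 summits in the 4 Hox windows (red) and in 200 kb tiles of the genome with at least 20 summits (grey, point area growing with the number of tiles). HoxA, HoxB and HoxC lie above the dotted line of equal counts and HoxD just under it, while the blue line of the genome ratio, 0.785, runs below all of them.

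Next, the summits were placed along each cluster, measured in kb from the outer end of the group 13 gene. In both genotypes the mark lay mostly at the group 13 end of HoxA, HoxB and HoxC, and at separate summits along HoxD. The distance has to be read with the peak calling in mind: a wide, strong peak yields 1 summit. Across the genome, WT summits of strength 2.5 to 5 had their nearest neighbour at a median of 1286 bp, whereas the 605 WT summits of 20 or more had it at 5716 bp. The KO list gave 1304 bp and, for 287 summits, 5852 bp. A stretch without summits beside a strong one is therefore not shown to lack the mark.

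**Figure D2:**
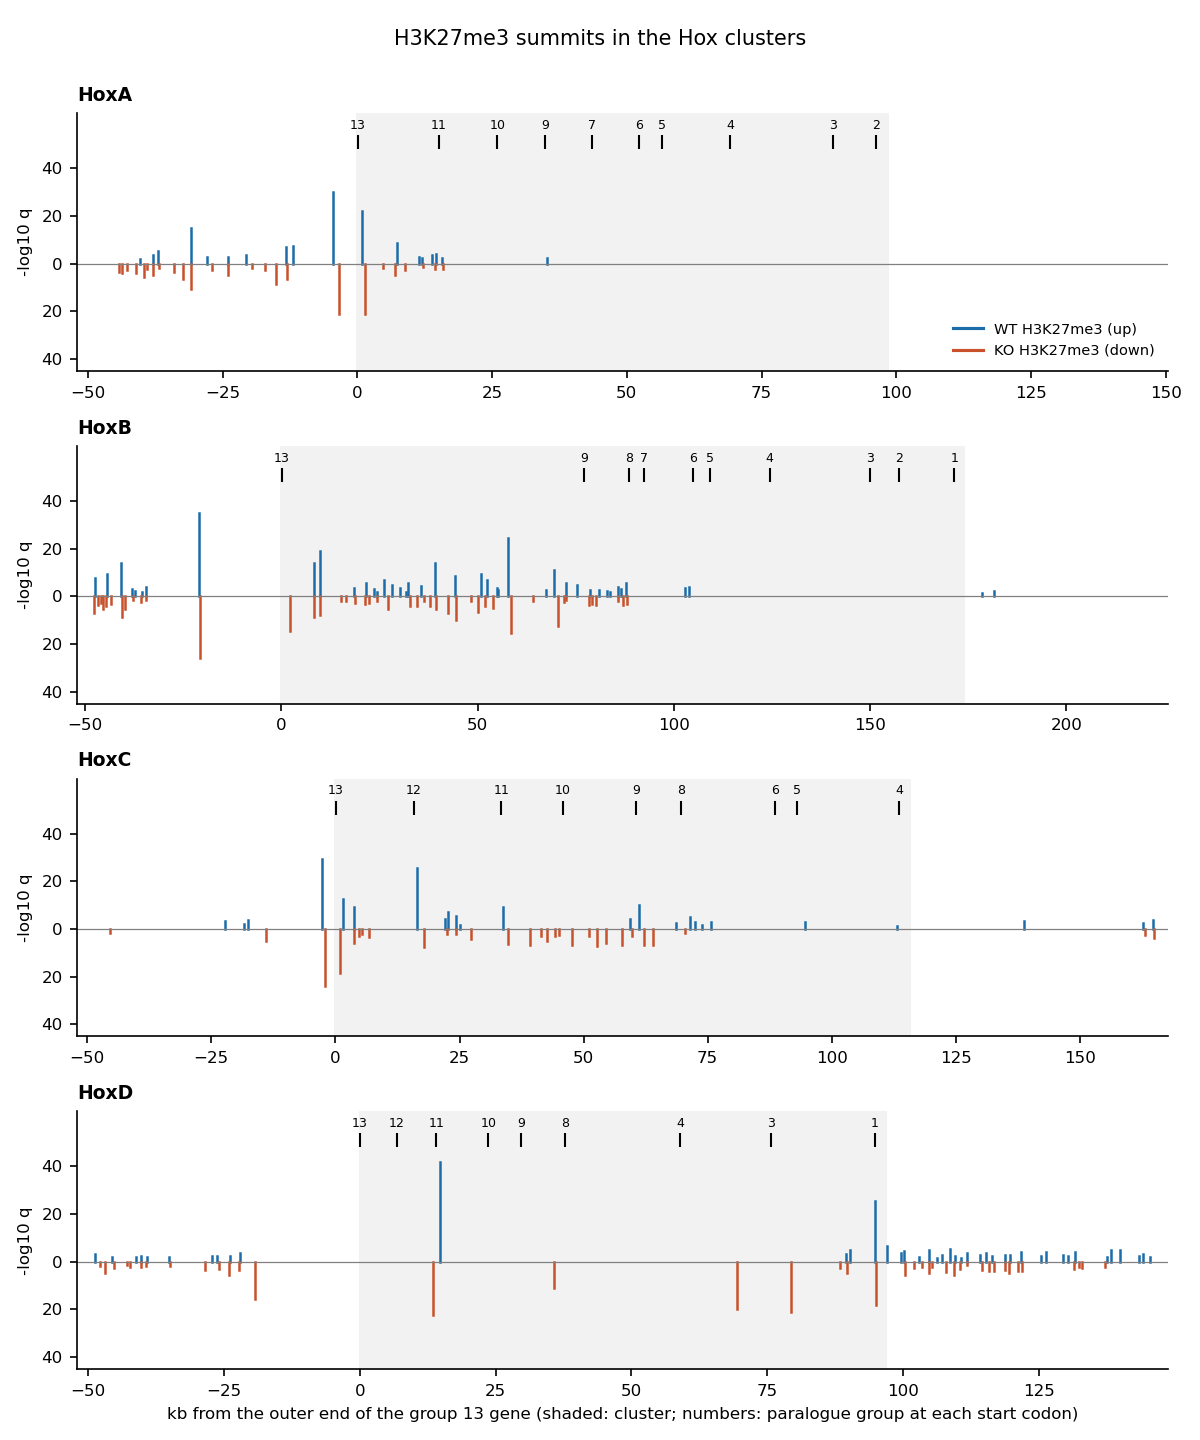
H3K27me3 summits in the 4 Hox windows, with the position in kb from the outer end of the group 13 gene (x axis), the strength (−log10 q, y axis), WT upwards and KO downwards, the span shaded and each start codon ticked with its paralogue group. In HoxA the shared summits end at group 11, in HoxB at group 8 and in HoxC at group 8, and in HoxD they reach group 1.

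In HoxA, the strongest WT summits were at Hoxa13, a gene of the distal limb and the hindgut. The strength was 30.1 at 4.60 kb outside the gene, in Hottip, the long noncoding RNA at the tip of the cluster, and 22.2 in a Hoxa13 exon. KO cells had 21 at 3.34 kb outside, 1264 bp from the WT summit, and 21.3 in the Hoxa13 intron, 649 bp from it. The pair of positions was thus marked in both genotypes. Of the 8 WT summits in the span, 7 lay from Hoxa13 to Hoxa11, a gene of the forearm and the kidney, and all 7 KO summits lay there too. The one other WT summit was weak (2.29), in an exon of Hoxa9, a gene of blood progenitors, and the nearest KO summit was 19245 bp away. From there to Hoxa2, a hindbrain and branchial arch gene, neither list had a summit, nor in the flank beyond. The flank on the Hoxa13 side held 10 WT and 18 KO summits.

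HoxB had the largest number of H3K27me3 summits in its span, 32 in WT and 32 in KO cells. All KO summits and 30 WT summits lay from Hoxb13, a gene of the tail and the prostate, to Hoxb8, a long interval in which Hoxb9 is the other gene. The strongest summit of the window was 20.98 kb outside Hoxb13 in WT (34.9) and 20.72 kb outside in KO cells (25.7), 256 bp apart. Within the span, the strongest was in the noncoding gene Gm53 in both genotypes, 24.4 in WT and 15.5 in KO cells, 680 bp apart. A KO summit of 14.5 lay in an exon of Hoxb13 itself, and the nearest WT summit was 6125 bp away, with strengths of 14.0 and, 1529 bp further, 19.0. In KO cells these 2 positions had summits of 8.81 and 7.87, at 20 bp and 67 bp from those of WT. Past Hoxb8 only 2 WT summits were listed in the span, the stronger at 4.08 near Hoxb6, and no KO summit.

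HoxC began with a strong summit outside Hoxc13, a hair and nail gene, at 29.4 in WT and 24.0 in KO cells, 742 bp apart. Within Hoxc13, WT cells had 12.8 and KO cells 18.3, 639 bp apart. An exon of Hoxc12 held the strongest WT summit of the span (25.7), and the nearest KO summit, 1515 bp away, had a strength of 7.42. Both genotypes had summits between Hoxc12 and Hoxc11 over Hotair, a long noncoding RNA known for its link to Polycomb, at 5.57 and 1.70 in WT and 2.16 in KO cells.

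A difference in layout inside HoxC lay around Hoxc10, a gene of lumbar motor neurons. Between a WT summit in Hoxc11 (9.23) and one in Hoxc9 (4.24), the WT list had no summit for 25.6 kb, and 11 KO summits fell into this gap. Between 35 and 59 kb the KO list had 10 summits, with strengths of 2.5 to 7.29 and a median of 5.55. These limits lie inside the WT gap, so the absence of WT summits between them follows from their choice. The gap was taken as the longest between WT summits of the span. How often a WT gap of this length holds as many KO summits elsewhere was not tested. None of the WT summits beside the gap reached 20. Accordingly, Hoxc10 had 3 KO summits and no WT summit within 2 kb of its start codon, where the nearest WT summit was 11983 bp away. Over the span, HoxC had 17 WT and 24 KO summits, a ratio of 1.41 (0.727 to 2.80), which takes in both an equal count and the genome ratio. Only 8 of 17 WT summits in the span had a KO summit within 1 kb.

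The HoxD span held 4 WT and 7 KO summits, of which 2 and 5 reached 5. The strongest WT summit of all 4 windows, 41.9, lay in an exon of Hoxd11, a forearm gene, within the top 0.0392% of the list. The strongest KO summit of HoxD, 22.5, was in the Hoxd11 intron, 1332 bp away. At the other end, Hoxd1, a gene of pain-sensing neurons in the mouse, carried 25.5 in WT and 18.1 in KO cells, 353 bp apart. In the WT list no summit lay for 74.7 kb between Hoxd11 and a summit of 3.44 in the noncoding gene Haglr. Within that gap KO cells had 4 summits, of which 3 were 10.9 between Hoxd9 and Hoxd8, 19.7 in a Hoxd3 intron and 20.9 in a Hoxd3 exon. Each of these 3 lay 10023 to 21004 bp from the nearest WT summit, and Hoxd3 is a gene of the neck vertebrae. The gap begins at the strongest WT summit, so whether WT cells lacked the mark there or had it in 1 wide peak cannot be told apart from summits alone.

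Most H3K27me3 summits of the HoxD window lay outside the genes. The flank past Hoxd1 held 28 WT and 20 KO summits, with medians of 2.98 and 3.38, and the flank past Hoxd13 held 10 and 13. There KO cells had a summit of 15.6 at 19.3 kb outside Hoxd13, 2771 bp from a WT one, while the highest WT strength on that side was 3.53. Restricted to strengths of at least 5, the HoxD window had 4 WT and 9 KO summits. In HoxA the same limit left 7 and 7, in HoxB 17 and 15, and in HoxC 9 and 14.

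Then the agreement in position was measured as the share of summits with a summit of the other genotype within 1 kb. Of the WT summits in the windows, 85 of 126 (67.5%, 58.5 to 75.5) had a KO partner, against 54.4% over the genome. Of the KO summits, 86 of 138 (62.3%, 53.7 to 70.4) had a WT partner, against 68.3%. In HoxB and in HoxD, 71.4% of WT and 75% of KO summits were paired. In HoxC it was 45.8% of WT (25.6 to 67.2) and 34.5% of KO summits (17.9 to 54.3), and the KO interval lay under the genome share. In HoxA 77.8% of WT and 52% of KO summits were paired. Without the flanks the KO share was 42.9% in HoxD and 71.9% in HoxB. With strengths of at least 5 it was 22.2% in HoxD, 28.6% in HoxC and 80% in HoxB, and the WT share was 42.9% in HoxA and 44.4% in HoxC, so the order of the clusters changed with both. Joined at gaps of up to 3 kb, the summits covered 108 kb in 53 stretches in WT and 153 kb in 43 stretches in KO cells. By cluster the length was 8.76 and 27.8 kb in HoxA, 40.5 and 50.2 kb in HoxB, 16.8 and 33.3 kb in HoxC, and 42.0 and 41.6 kb in HoxD. Joined at gaps of up to 5 kb, the lengths over the 4 windows were 188.7 kb in WT and 208.6 kb in KO cells, and the WT length was the greater in HoxB, 71.9 against 58.5 kb, and in HoxD, 68.8 against 50.5 kb.

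At the gene starts the marks were compared with all protein-coding genes. A WT H3K27me3 summit lay within 2 kb of 10 of 38 Hox starts (26.3%), against 23.4% of all genes, and a KO summit at 12 (31.6%), against 19.8%. Both shares were within counting error of the background. Both genotypes marked 8 starts (21.1%), WT alone 2 (5.26%) and KO alone 4 (10.5%), and 24 (63.2%) had neither. Over all protein-coding genes these shares were 17.2%, 6.14%, 2.58% and 74.0%. Whether the split of the Hox starts differs from them was not tested. The outermost annotated start can lie far from the coding part in Hoxa3, Hoxc5 and other members with long transcripts. Around the start codon, 15 genes had a WT summit and 11 a KO summit. Marked in both genotypes there were Hoxa13 and Hoxa11, Hoxb9 and Hoxb8, Hoxc13, Hoxc11, Hoxc9 and Hoxc8, and Hoxd11 and Hoxd1. WT alone marked Hoxa9, Hoxb6, Hoxc12, Hoxc5 and Hoxc4, and KO alone marked Hoxc10. At Hoxc12 a KO summit of 7.42 lay 2117 bp from the start codon, just past the 2 kb limit. The share over all genes was not counted for start codons. The median distance from a Hox start codon to the nearest summit was 7461 bp in WT and 10160 bp in KO cells, against 27831 and 40926 bp for all genes with a coding start. The Hox genes were thus nearer to the mark than most genes, without a summit at most of their starts.

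**Figure D3:**
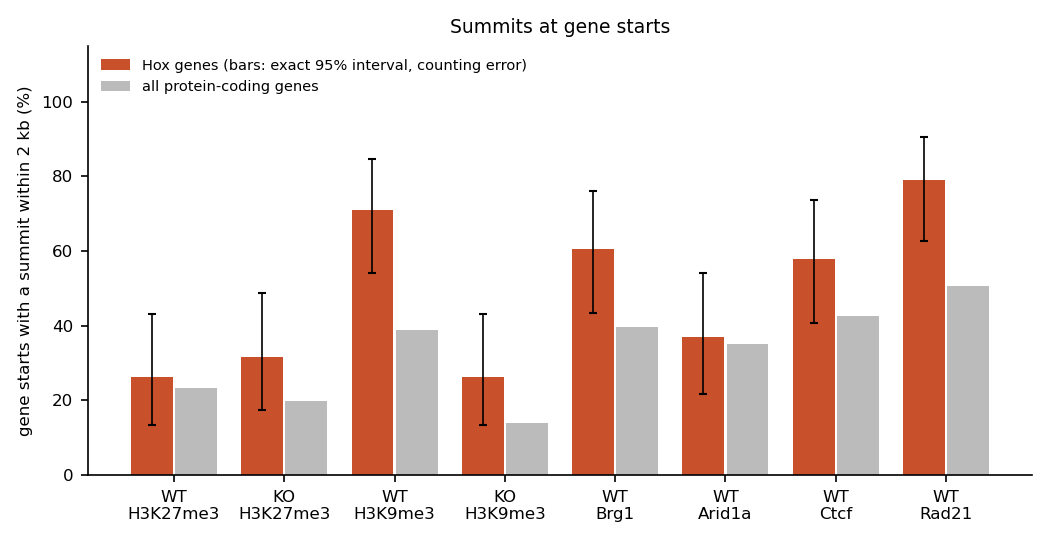
Share of gene starts with a summit within 2 kb (y axis, %) for the 8 lists, in the 38 Hox genes (red, with exact 95% intervals for counting error) and in all protein-coding genes (grey). The Hox share stands clear of the grey bar for WT H3K9me3, WT Brg1 and WT Rad21, and the grey bar lies within the interval in the other lists.

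To ask where the mark ended, the last position from the group 13 end with summits of both genotypes within 3 kb was taken in each span, a measure chosen after the maps had been seen. It lay at 15.9 kb in HoxA, in Hoxa11, at 88.0 kb in HoxB, in Hoxb8, at 72.4 kb in HoxC, in Hoxc8, and at 95.1 kb in HoxD, in Hoxd1. The groups before it are called posterior here and those after it anterior. In the anterior parts of HoxA, HoxB and HoxC, KO cells had 0 summits. In HoxA and HoxB this follows from the definition, since the position is itself that of the last KO summit of the span. WT cells had 1, 2 and 4 there, with strengths of at most 2.29, 4.08 and 2.95. The posterior parts of these 3 clusters held 7, 30 and 13 WT and 7, 32 and 24 KO summits. With strengths of at least 5 alone, the last shared position moved to 1.49 kb in HoxA, 72.6 kb in HoxB and 64.0 kb in HoxC and did not move in HoxD. In HoxC a partner within 1 kb placed it at 59.7 kb.

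Brg1, the ATPase of the SWI/SNF complex, and Arid1a, one of its subunits, were then placed relative to these parts. Brg1 had 37 summits in the HoxA window, 46 in HoxB, 21 in HoxC and 1 in HoxD. Arid1a had 34, 15, 15 and 5. Over the 4 windows the densities were 3.97 times and 3.02 times that of the genome. Among the 4 clusters HoxD had the least Brg1, with none in the span, which allows up to 3 summits, and 1 weak summit (2.56) in the flank. Over the genome this was not unusual, since 58.8% of all 200 kb tiles reached the Brg1 density of the HoxD window and the rest did not. The densities of HoxA, HoxB and HoxC were reached by 0.513%, 0.968% and 7.34% of the tiles.

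Brg1 and Arid1a summits were counted in the same parts. HoxA had 3 posterior and 29 anterior Brg1 summits, 1.89 and 3.51 per 10 kb. HoxB had 8 and 33, or 0.909 and 3.84 per 10 kb. In HoxC the order was the other way, with 11 posterior and 3 anterior summits, or 1.52 and 0.692 per 10 kb. Arid1a had 0 posterior summits in HoxA, which allows up to 3, and 25 anterior ones, 3.03 per 10 kb. In HoxB it had 4 and 11, or 0.454 and 1.28 per 10 kb, and in HoxC 5 and 4, or 0.691 and 0.923 per 10 kb. The posterior part of HoxA is short, and its Brg1 density rests on 3 summits. The anterior parts of HoxA and HoxB also hold more genes, 8 each against 2 posterior ones. Over HoxA, HoxB and HoxC together, Brg1 lay within 2 kb of the start codon of 8 of 10 posterior and 13 of 19 anterior genes. For Arid1a it was 2 of 10 and 12 of 19. By cluster, Brg1 was at 1 of 2 posterior and 6 of 8 anterior genes in HoxA and at 2 of 2 and 7 of 8 in HoxB. In HoxC it was at 5 of 6 and 0 of 3, so the pooled order rested largely on HoxC. Hoxb8, which holds the last shared position of HoxB, was counted as anterior. The share over all genes was not counted for start codons. Of the Brg1 summits, 5 of 32 in the HoxA span (15.6%, 5.28 to 32.8) and 6 of 41 in the HoxB span (14.6%, 5.57 to 29.2) had a WT H3K27me3 summit within 1 kb, against 3.53% over the genome.

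**Figure D4:**
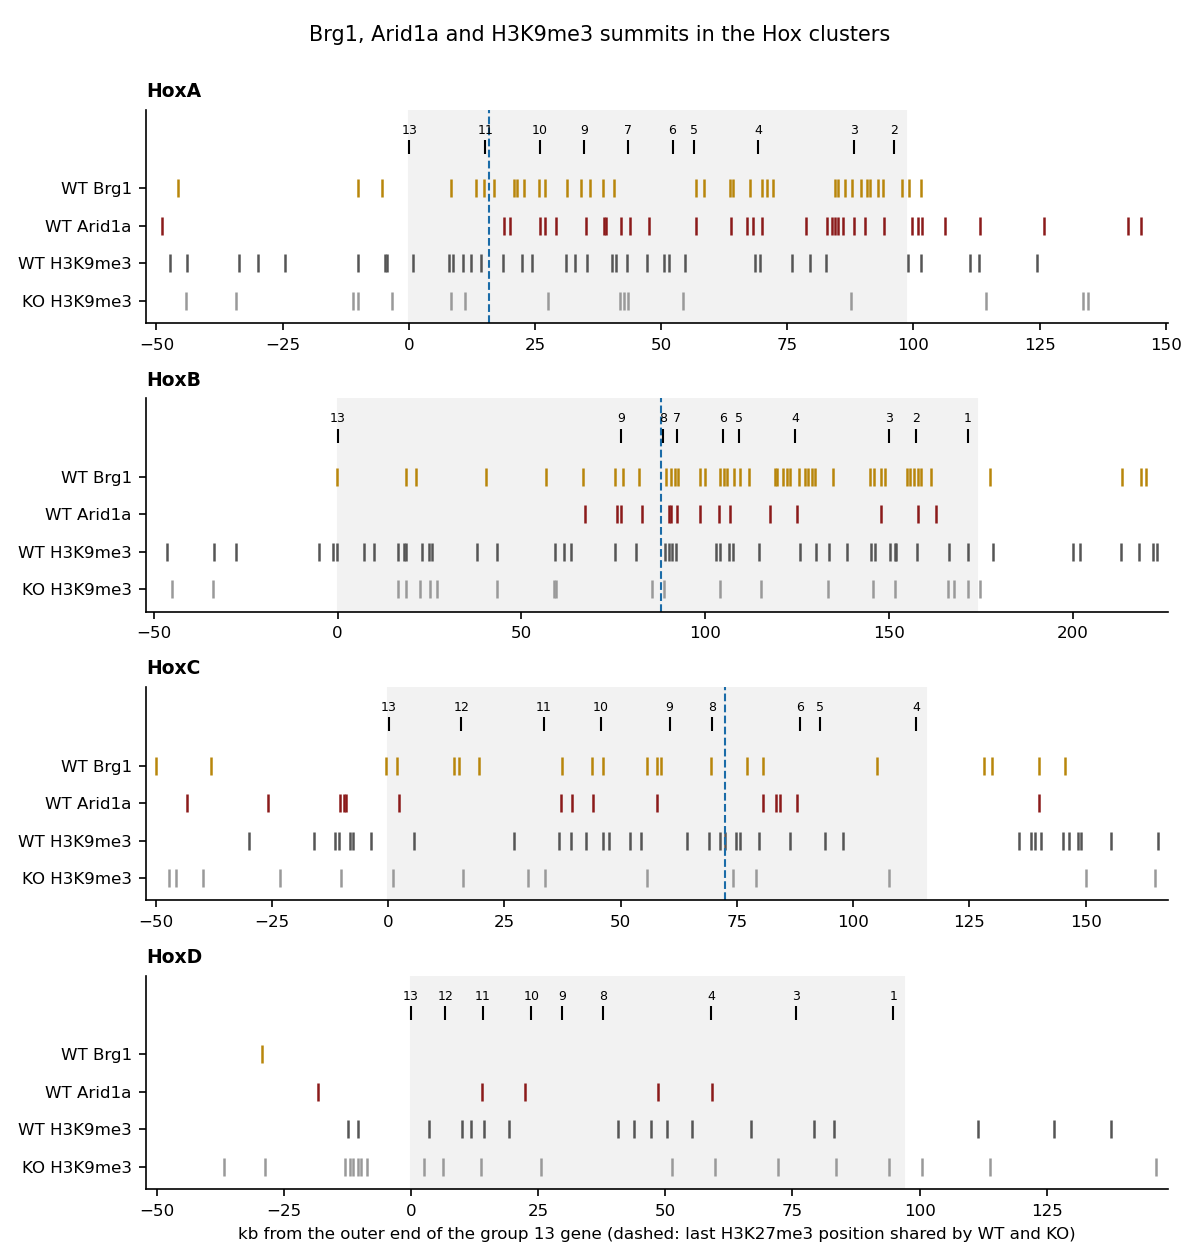
Positions of Brg1, Arid1a and H3K9me3 summits (rows) along the 4 Hox windows in kb from the outer end of the group 13 gene (x axis), with the span shaded, start codons ticked by paralogue group and a dashed line at the last shared H3K27me3 position of HoxA, HoxB and HoxC. Brg1 has 29 of its 32 HoxA and 33 of its 41 HoxB summits past the line, where most genes of these clusters also lie, and 0 in the HoxD span.

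Brg1 lay within 2 kb of 23 of 38 Hox starts (60.5%, 43.4 to 76.0), against 39.6% of all genes, and Arid1a at 14 (36.8%, 21.8 to 54.0), against 35.2%. The Brg1 interval lay above the background and that of Arid1a took it in. By cluster, Brg1 marked 7 starts in HoxA, 9 in HoxB, 7 in HoxC and 0 in HoxD. The strongest Brg1 summit was 7.56 in an exon of Hoxb2, a hindbrain gene, followed in HoxB by 6.87 in Hoxb7 and 6.74 in Hoxb8. In HoxC it was 5.4 in Hoxc6, a gene of limb-level motor neurons, and in HoxA 5.20 past Hoxa2, in the noncoding gene Hotairm1. The strongest Arid1a summit was 6.22 in Hoxa3, a gene of the thymus and parathyroid, followed by 5.44 in Hoxa9. In HoxB it was 5.36 in Hoxb6, in HoxC 3.13 in the flank and in HoxD 2.70 in Hoxd4. In all 4 windows 11 of 105 Brg1 summits (10.5%) and 3 of 69 Arid1a summits (4.35%) reached 5, against 3.94% and 2.49% of the whole lists.

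Summits of the 2 subunits coincided more often inside the clusters than elsewhere. In the spans 39 of 87 Brg1 summits (44.8%, 34.1 to 55.9) had an Arid1a summit within 1 kb, against 27.5% over the genome. Of the Arid1a summits, 36 of 53 (67.9%, 53.7 to 80.1) had a Brg1 summit, against 31.1%. With Rad21, 58.6% of Brg1 summits in the spans were paired, against 27.4%. Brg1 and WT H3K27me3 were within 1 kb of each other at 14 of 87 Brg1 summits (16.1%, 9.09 to 25.5), against 3.53% over the genome. All of these lists are denser in the clusters than in the genome, and the part of that density in the paired shares was not tested.

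Next, the sites of Ctcf and of Rad21, a cohesin subunit, were examined inside the clusters. Ctcf had 21 summits in the span of HoxA, 38 in HoxB, 21 in HoxC and 8 in HoxD, and Rad21 had 33, 44, 34 and 20. In the windows Rad21 was at 5.09 times the genome density and Ctcf at 3.61 times. A Ctcf summit lay within 2 kb of 22 Hox starts (57.9%), against 42.5%, and a Rad21 summit at 30 (78.9%), against 50.6%. Of the 88 Ctcf summits in the spans, 67 (76.1%, 65.9 to 84.6) had a Rad21 summit within 1 kb, against 55.7% over the genome. Of the 131 Rad21 summits, 67 (51.1%, 42.3 to 60.0) had a Ctcf summit, against 52%. The excess of pairing was therefore on the Ctcf side. It was clear of counting error at weak sites, where 8 of 11 Ctcf summits under 2.5 (72.7%, 39.0 to 94.0) and 23 of 39 from 2.5 to 5 (59%, 42.1 to 74.4) were paired, against 33.1% and 38.8% over the genome. At strengths of 20 or more, all 20 Ctcf summits in the spans were paired, as were 97.9% in the genome. Rad21 was denser in the spans, at 7.24 times the genome, and Ctcf at 5.41 times. The part of that density in these paired shares, and in their difference between Ctcf and Rad21, was not tested.

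**Figure D5:**
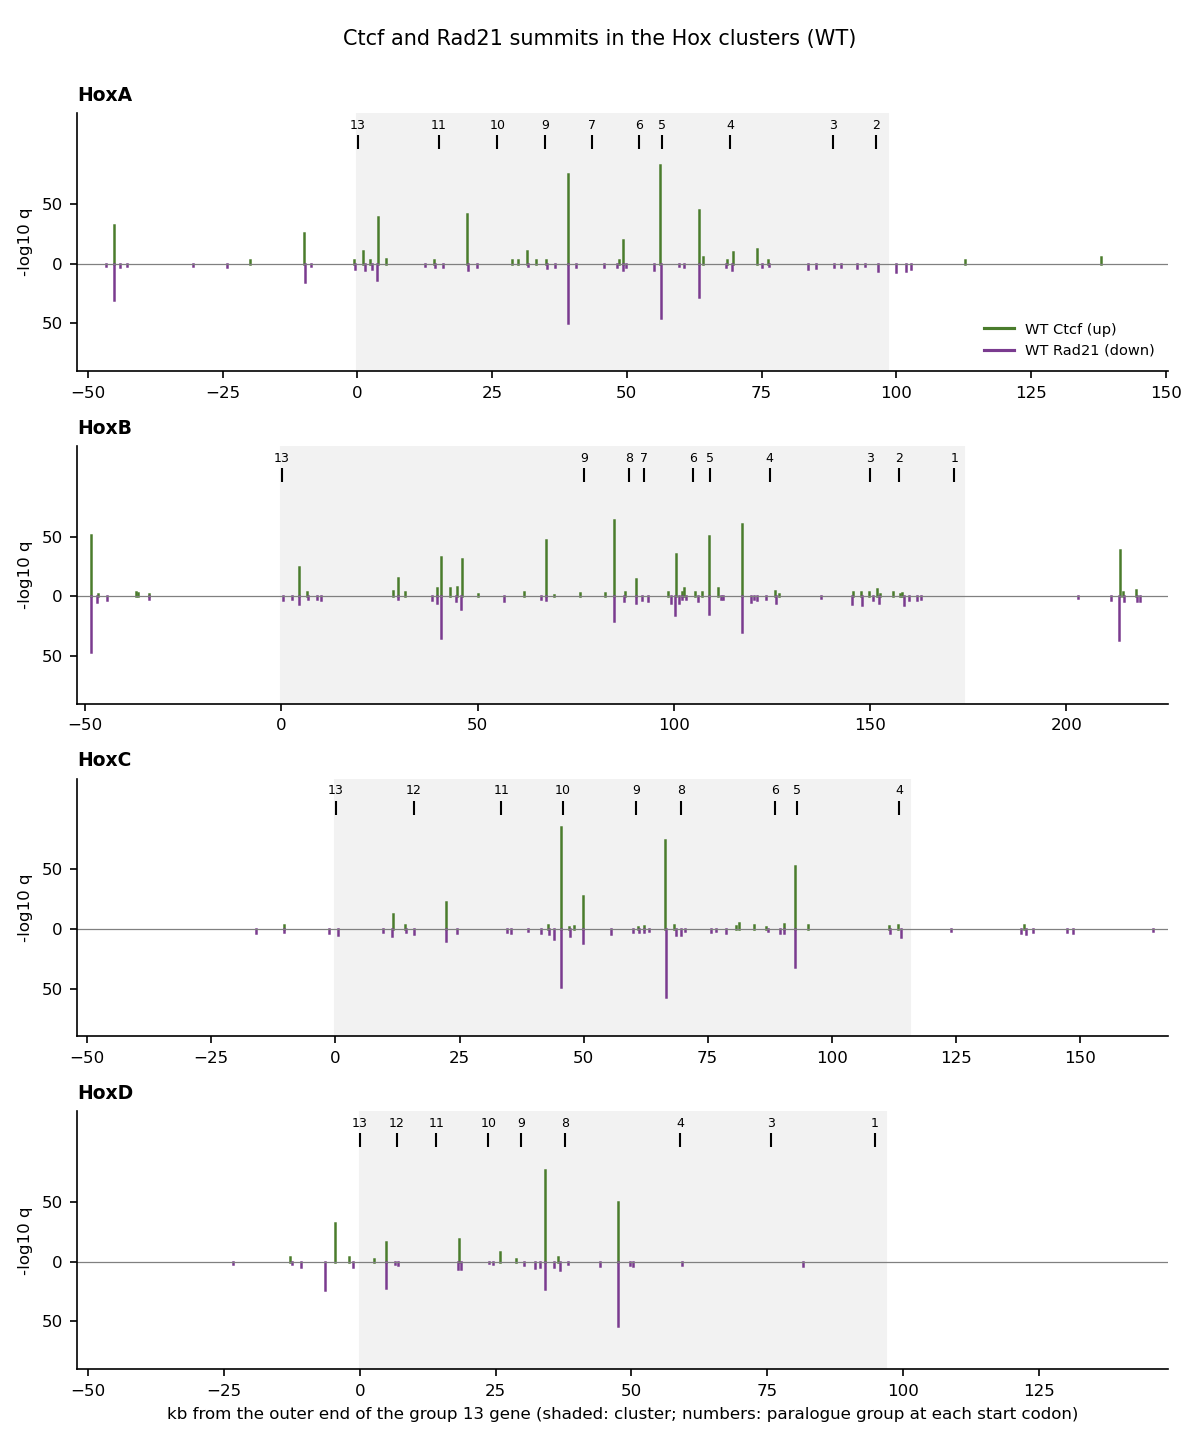
Ctcf (upwards) and Rad21 (downwards) summits of WT cells in the 4 Hox windows, with the position in kb from the outer end of the group 13 gene (x axis), the strength (−log10 q, y axis), the span shaded and start codons ticked by paralogue group. Strong sites, of at least 20, number 5 in HoxA, 8 in HoxB, 5 in HoxC and 2 in HoxD, and none lies in the last 49.2 kb of HoxD.

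The 20 strong Ctcf sites were placed by the start codons on either side of them. In HoxA the strongest was between Hoxa5, a lung and neck gene, and Hoxa6, with 82.4 for Ctcf and 45.8 for Rad21. The next was between Hoxa7 and Hoxa9, with 74.9 and 49.6. Further sites lay between Hoxa4 and Hoxa5 (44.9 and 27.7), between Hoxa10 and Hoxa11 (41.4 and 5.69) and between Hoxa11 and Hoxa13 (38.8 and 13.5). The Rad21 strength thus did not follow that of Ctcf at the site beside Hoxa10, a gene of the uterus and the lumbar spine.

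HoxB had 4 strong sites between Hoxb13 and Hoxb9, with Ctcf strengths of 24.4, 32.7, 31.5 and 47.6 and Rad21 strengths of 6.33, 35.2, 10.6 and 2.96. The strongest was between Hoxb9 and Hoxb8, with 63.9 and 20.9. Those past Hoxb8 lay between Hoxb7 and Hoxb6 (35.6 and 16), Hoxb6 and Hoxb5 (50.9 and 15.2) and Hoxb5 and Hoxb4 (60.6 and 29.9). Beyond the last one, 56.5 kb with Hoxb4, a gene used to expand blood stem cells, down to Hoxb1 held 10 further Ctcf summits, all under 20.

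In HoxC the strongest Ctcf summit of the spans, 85.2, lay between Hoxc11 and Hoxc10 with 49.0 for Rad21. The one between Hoxc9 and Hoxc8, genes of the thoracic motor neurons and skeleton, had 75 and 57.2, the highest Rad21 strength of the windows. The others were between Hoxc6 and Hoxc5 (53.0 and 32.1), Hoxc10 and Hoxc9 (27.8 and 11.5) and Hoxc12 and Hoxc11 (23.0 and 10). HoxD had only 2, between Hoxd9 and Hoxd8 (76.7 and 22.9) and between Hoxd8 and Hoxd4 (49.8 and 53.9). More than 1 kb past the latter, no Ctcf summit and 4 Rad21 summits were listed in the 49.2 kb with Hoxd4, Hoxd3 and Hoxd1. A count of 0 allows up to 3 summits.

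The last shared H3K27me3 position and the nearest strong Ctcf site were set side by side. In HoxA the site between Hoxa10 and Hoxa11, whose sequence closes the printed set, lay 4.40 kb past it. In HoxB the site between Hoxb9 and Hoxb8 lay 3.31 kb before it, and in HoxC that between Hoxc9 and Hoxc8 lay 5.92 kb before it. In HoxD the nearest was 47.5 kb before it. Strong sites thus lay within 6 kb of the position in 3 clusters, on either side of it. With 5 to 8 strong sites in each of these spans, how near a site would lie by chance was not tested.

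H3K27me3 was counted in the 10 kb on both sides of each strong Ctcf site. Over the 20 sites, WT cells had 27 summits on the group 13 side and 28 on the low-group side, and KO cells had 36 and 34. With the genotypes together, 10 sites had summits on both sides, 6 on one side and 4 on neither. The site between Hoxa10 and Hoxa11 had 5 WT and 3 KO summits on the Hoxa11 side and 0 on the other. The site between Hoxc11 and Hoxc10 had 0 WT summits on either side, and 5 and 4 in KO cells. Ctcf was profiled in WT cells only, and some sites had both sides marked only through KO summits. One was the Hoxb13–Hoxb9 site of 24.4, with 0 and 2 WT and 1 and 2 KO summits. Whether strong Ctcf sites separate a marked from an unmarked side in WT cells is therefore not settled by the joint counts.

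Finally, the letters under the Ctcf summits were compared with those of the genome. A matrix of 20 positions was learned from 8646 sites outside the Hox windows, starting from the letters CCANNAGNNGGC, and the best match on both strands within 100 bp of each summit was scored. At the score reached by 1% of positions moved 2 kb away, 2 of the 20 strong Hox sites passed (10%, 1.23 to 31.7). Of the sites of at least 20 elsewhere, 46.5% passed. The matrix was learned from those same sites elsewhere, which can raise their shares and scores by the matrix. Beyond the limit of 20, their strengths were not matched to those of the Hox sites. The core letters themselves were found at 3 of 20 (15.0%), against 41.7%. At a score reached by 5% of the moved positions, a limit added after the first count was seen, 17 of 20 passed (85.0%, 62.1 to 96.8), against 86.6%. The median best score was 15.6 in the Hox sites and 18.4 elsewhere, with 1.53 and 1.89 at the moved positions. At the lower limit the strong Hox sites thus had matches about as often as others, with a lower median score. No match in this window says only that these letters were not found there.

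Of these 17 matches, 10 read toward the low groups and 7 toward group 13. HoxA had 3 and 1, HoxB 2 and 5, HoxC 3 and 1, and HoxD 2 and 0. In HoxB all 4 sites between Hoxb13 and Hoxb9 read toward group 13. The printed Hoxb9–Hoxb8 site, beside the last shared H3K27me3 position, read toward the low groups, as did the Hoxa10–Hoxa11 site of HoxA and that between Hoxc9 and Hoxc8.

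H3K9me3, the mark of constitutive heterochromatin, was also counted in both genotypes. The windows held 140 WT and 72 KO summits, a ratio of 0.514 (0.382 to 0.688), against 0.938 over the genome. The ratio was 0.432 (0.225 to 0.797) in HoxA, 0.429 (0.244 to 0.728) in HoxB, 0.417 (0.212 to 0.780) in HoxC and 1.11 (0.558 to 2.23) in HoxD. The intervals of HoxA, HoxB and HoxC lay under the genome ratio. At the gene starts, 27 of 38 Hox genes (71.1%, 54.1 to 84.6) had a WT summit, against 38.7% of all genes, and 10 (26.3%, 13.4 to 43.1) a KO summit, against 14% of all genes. Among all 21938 genes, 8500 starts had a WT and 3068 a KO summit. Fewer starts in KO than in WT cells were thus seen over all genes too and were not particular to the Hox genes. The whole-genome ratio of 0.938 does not show this fall at gene starts. In the windows 1 of 140 WT summits (0.714%) and 3 of 72 KO summits (4.17%) reached 5, against 4.13% and 4.85% of the whole lists, and the highest were 5.59 in WT and 8.11 in KO cells. In the spans 32 of 92 WT H3K9me3 summits (34.8%) lay within 1 kb of Brg1, against 14.9% over the genome, and 24 of 61 WT H3K27me3 summits (39.3%) lay within 1 kb of H3K9me3, against 12%. With strengths of at least 5, the ratio could be computed in HoxA alone, from 1 WT and 2 KO summits, and it was then 2, on the other side of an equal count. At that strength the WT density was 0.518 times that of the genome.

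The genes that work with or lie beside the clusters were counted by the same rule. Of 9 Hox cofactor genes, which encode the Pbx, Meis and Pknox partners of Hox proteins on DNA, 1 had WT H3K27me3 within 2 kb of its start and 2 had it in KO cells. These were Pknox2 in both, at 2.71 and 2.25, and Meis3 in KO cells, at 4.28. Brg1 lay at 8 of them, Rad21 at 8, Arid1a at 5, Ctcf at 5, and H3K9me3 at 7 in WT and 0 in KO cells. Over all protein-coding genes the shares were 39.6% for Brg1, 50.6% for Rad21, 35.2% for Arid1a and 42.5% for Ctcf. For H3K9me3 they were 38.7% in WT and 14% in KO cells, and for H3K27me3 23.4% and 19.8%. Whether the counts of the 9 genes differ from these shares was not tested. Of 18 matched neighbours of the clusters, 5 had WT and 2 had KO H3K27me3, beside the same shares of 23.4% and 19.8% over all genes. Evx1, a homeobox gene beside Hoxa13, had 34.9 in WT and no KO summit within 2 kb, and Skap1, beside HoxB, had 15.0 and 12.7. Evx2, the matching neighbour of Hoxd13, had none in either genotype.

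The promoter windows of 22 members were found in the RefSeq promoter table, each from 250 bases before to 50 after a start. Their median GC share was 56.8%, against 52.7% over all 27025 windows, and the observed over expected CpG count was 0.594, against 0.389. The GC share ran from 39.7% at Hoxd4 to 81.0% at Hoxa13, the member with one of the strongest H3K27me3 summits in both genotypes. Hoxd11, with the strongest WT summit, had 45.7%.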

How the data were processed

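Peak lists of 8 AB17 ChIP-seq samples were analysed, 1 library for each combination of genotype and antibody named in the sample titles. The 2 input samples entered only through the peak calling. By the study's methods, the authors aligned reads to mm10 with bowtie2, filtered them with SAMtools and Picard, then ran MACS2 with its default settings and the matching input. Versions and any pooling are not given in the sources used here. Each deposited list gives the summit and its −log10 q-value, a unit read from the values, as none lay under 1.3. The strength grows with depth, which is unknown.

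Summits were counted in windows around the listed genes (GENCODE vM21), and 0 lay beyond a chromosome end. Partners were summits within 1 kb and gene starts the outermost ones with 2 kb on both sides. Exact 95% intervals (Clopper-Pearson, for a ratio from the binomial share) came from scipy 1.17.1 under Python 3.11.15. The motif matrix used RefSeq GRCm38.p6. Counting and motif search were tested on simulated data. All members could be named, with the strongest summits per list and cluster, the Ctcf sites of at least 20, and lists of cofactors, neighbours and hepatocyte genes. The rule for the members uses no measured value, but the clusters were picked as a subject, and the lists fixed, with earlier results of these data known. Alternatives were another strength, flank, partner distance, start window, joining distance, equal list lengths, start codons and motif threshold.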

Additional observations from a re-analysis of the deposited data

How the results depend on the processing

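Over 41 results, 158 alternative values were computed, and 2 called values crossed an equal level. With strengths of at least 5, these were the WT H3K9me3 density, 0.518, and the H3K9me3 ratio of HoxA, 2. No paired analysis was possible because each group has 1 library and the groups share fewer than 2 replicate numbers. With strengths of at least 5, the density over the genome became 9.17 for WT and 13.6 for KO H3K27me3, 10.5 for Brg1 and 5.27 for Arid1a. Without flanks it became 3.59 for WT H3K9me3, 6.00 for Brg1, 4.23 for Arid1a, 5.41 for Ctcf and 7.24 for Rad21, and with flanks of 100 kb 4.11 for Rad21. The H3K27me3 KO to WT ratio became 3.17 in HoxA by joined length, and in HoxD 2.25 with strengths of at least 5 and 1.75 without flanks. The single-cluster ratios, whose intervals took in 1, also crossed it at 0.875 in HoxA without flanks, at 0.882 in HoxB with strengths of at least 5, at 0.887 in HoxB and 0.968 in HoxC with flanks of 100 kb, and at 1.14 in HoxD with equal numbers of peaks. The ratio over the 4 windows, whose interval took in 1 too, crossed it at 0.989 with flanks of 100 kb. The share of WT H3K27me3 summits with a KO partner was 54.1% with strengths of at least 5, 46.8% within 500 bp and 81.0% within 2 kb, and that of KO summits 46.7%, 42.0% and 79.0%. Gene starts within 5 kb numbered 17 for WT H3K27me3 and 27 for Arid1a, and with strengths of at least 5 they numbered 1 for Arid1a and 4 for Brg1. The WT length joined at 5 kb was 188.7 kb. Ctcf summits with Rad21 were 64.8% within 500 bp and 87.5% within 2 kb, and Rad21 summits with Ctcf 67.4% with strengths of at least 5 and 70.2% within 2 kb. The motif share at the 5% limit was 85.0%. The H3K9me3 ratio with strengths of at least 5 could not be had in the other clusters, which held no such WT summit. The cause of these shifts was not tested. Of the remaining alternative values of the main results, 71 moved by less than counting error or 1.5 times. Of those for single items, 39 did so and 17 moved further. Where 1 library stands for a group and its depth is unknown, a difference in count can be that of the libraries, and the genotype and the library cannot be told apart.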
